A study of Mus musculus with 4 samples.

Results

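Collagens are the main structural proteins of the extracellular matrix, and fibroblasts are a chief source of them. The genes described here are the autosomal collagen genes of mouse embryonic fibroblasts, chosen by symbol alone (Col, a type number, the letter a and a chain number, with nothing after it) and by a position outside the X chromosome. The rule found 42 of the 22691 genes of the table, on 14 chromosomes, and used no measured value. The fibroblasts came from female fetuses at E13.5 and were profiled by RNA-seq of polyadenylated RNA. One group, WT, was Smchd1 +/+ with 2 libraries, and the other, MD1, was Smchd1 MD1/MD1 with 2 libraries. SmcHD1 is a chromatin protein that takes part in silencing the inactive X. All fetuses were also Xist deltaA/+, an Xist mutation carried by their B6 mothers, and their fathers were F1 hybrids of B6 and JF1. The cells of both groups thus shared the Xist mutation and could carry JF1 alleles at some autosomal loci only.

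Each collagen molecule is a trimer of chains whose helical part repeats glycine followed by a pair of other residues. Fibril-forming collagens such as types I, III and V build the cable-like fibres of connective tissue. Type IV makes the mesh of basement membranes, type VI makes beaded filaments around cells, and the FACIT collagens bind to the surface of fibrils. Network collagens form sheets, and transmembrane collagens stay in the cell surface. Chains are modified and folded in the endoplasmic reticulum, trimmed after secretion, cross-linked, and then bound by integrins and other receptors.

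For autosomal genes the table holds 1 FPKM value per group, the authors' mean, where FPKM is the number of sequenced fragments scaled for transcript length and library depth. No value per library was given for these genes, so no spread, test or overlap of the groups can be stated, and a single library could carry a difference. Smchd1 itself had 14.7 FPKM in WT and 1.94 in MD1, or 13.1% of WT. Ratios are log2 of (FPKM + 1) in MD1 over WT, a scale that understates the change of low genes, and percentages compare FPKM as deposited. Fewer cells of a type and less RNA per cell cannot be told apart in these bulk samples. Neither can the Smchd1 genotype be told apart from JF1 alleles inherited at the collagen loci or from other differences between the cultures.

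The glycine repeat that defines the family was visible in the coding sequences of all 42 genes (GENCODE M21, GRCm38) as glycine codons, which start with GG, at the head of successive triplets of codons. A stretch of 72 bases is shown for Col1a1, the most abundant member, for Col5a3 and Col6a3, the members with the highest ratios among those at 1 FPKM or more, and for Col4a1, where the repeat is interrupted. Capitals mark the glycine codons that belong to a run of at least 5 triplets, and each span given includes intron sequence that is not printed.
Col1a1 (chr11:94939451-94939921, plus strand, start of the longest run): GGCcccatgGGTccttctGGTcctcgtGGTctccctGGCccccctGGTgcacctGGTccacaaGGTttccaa
Col5a3 (chr9:20801095-20801260, minus strand, start of the longest run): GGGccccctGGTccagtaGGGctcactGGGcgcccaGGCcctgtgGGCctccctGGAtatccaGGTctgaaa
Col6a3 (chr1:90791942-90792445, minus strand, start of the longest run): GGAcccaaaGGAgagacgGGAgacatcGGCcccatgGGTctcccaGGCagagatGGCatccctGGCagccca
Col4a1 (chr8:11244516-11245075, minus strand, end of the longest run): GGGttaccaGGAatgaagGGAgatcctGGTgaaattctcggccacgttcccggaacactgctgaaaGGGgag
In the fibrillar class the longest unbroken run held 216 to 344 glycine triplets, with a median of 338 over 11 genes. The shortest were Col24a1 with 216 and Col27a1 with 217. In the 4 basement membrane genes the longest run held 39 to 66 triplets, and each gene had 22 to 27 separate runs. The 6 beaded filament genes had 3 to 5 runs, the longest of 37 to 87 triplets. The 9 FACIT genes had 2 to 21 runs, the longest of 32 to 113 triplets. Col5a3 had a longest run of 337 triplets, close to the 338 of Col5a1 and the 339 of Col5a2, the genes of the other chains of type V. Col6a3 had a longest run of 45 triplets against 87 in Col6a1 and 87 in Col6a2, while all 3 genes had 109 to 110 triplets in runs.

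**Figure D1:**
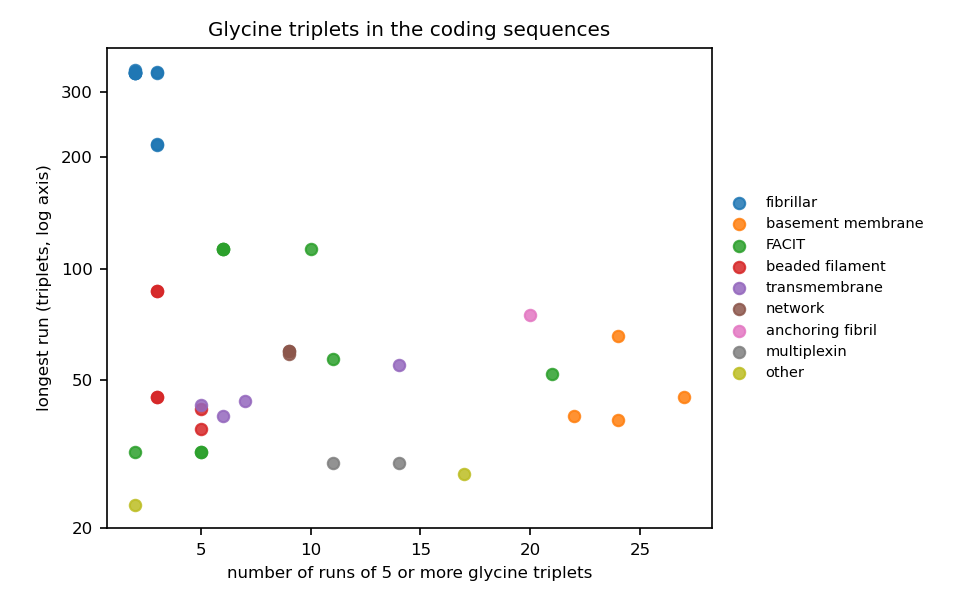
Number of glycine-triplet runs (horizontal axis) and length of the longest run in triplets (vertical log axis) for the coding sequence of each of the 42 genes, coloured by class; overlapping points hide each other. Fibrillar genes sit apart at the top left with 2 to 3 runs and a longest run of 216 to 344 triplets, and basement membrane genes lie to the right with 22 to 27 runs.

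Most collagen RNA was lower in MD1. Summed over the 42 genes, the level was 5138 FPKM in WT and 3109 FPKM in MD1, or 60.5% of WT. All 42 genes were above 0 in both groups, and 25 had a mean FPKM of 1 or more, the minimum used for ratios; Col9a3 was just inside it with a mean of 1.05 and Col9a1 just outside with 0.953. Of these 25 genes, 7 were at least 2-fold lower in MD1 on the log2 (FPKM + 1) scale and 2 at least 2-fold higher, where 2.81% and 1.39% of all 11399 genes at 1 FPKM or more were that far apart. Of the lower ones, Col14a1, Col8a2 and Col11a2 were under 1 FPKM in MD1 and passed the minimum only through WT. The minimum was the same for all genes. The ratio was below 0 for 22 of the 25, against 49.2% of all such genes, and the median was -0.65, against 0.0058 over all such genes. Compared on FPKM as deposited, 8 of the 25 were at 50% of WT or less and 2 at 200% or more, against 4.51% and 2.48% of all such genes. The 8 include Col14a1, Col8a2, Col11a2 and Col9a3, which passed the minimum only through WT. Col15a1, among the 22 below 0, also passed only through WT. Over all 42 members, with no minimum, 8 were at least 2-fold lower, 2 at least 2-fold higher and 33 below 0, beside 1.95%, 0.976% and 52.5% of the 16810 genes above 0 in both groups. The median over the 42 was -0.57.

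The abundant collagens were all lower. Each of the 10 members with a mean of 100 FPKM or more was lower in MD1, at 40.3% to 69.9% of its WT level with a median of 63.0%. Among all 768 genes this abundant, 48.8% were lower and the median was 100.5% of WT. This range depends on the cut, which is on the mean of both groups. In WT 11 members were over 100 FPKM, and Col11a1, with a mean of 79.6, was outside the range at 29.8% of WT. Fibrillar genes made up 73.6% of the summed collagen FPKM in WT and 71.3% in MD1. Basement membrane genes held 14.5% and 15.97%, FACIT genes 3.90% and 3.94%, beaded filament genes 3.28% and 5.19%, network genes 4.05% and 2.51%, and the anchoring fibril gene Col7a1 0.190% and 0.431%. The transmembrane genes were a trace, with 0.0143% and 0.0132%.

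**Figure D2:**
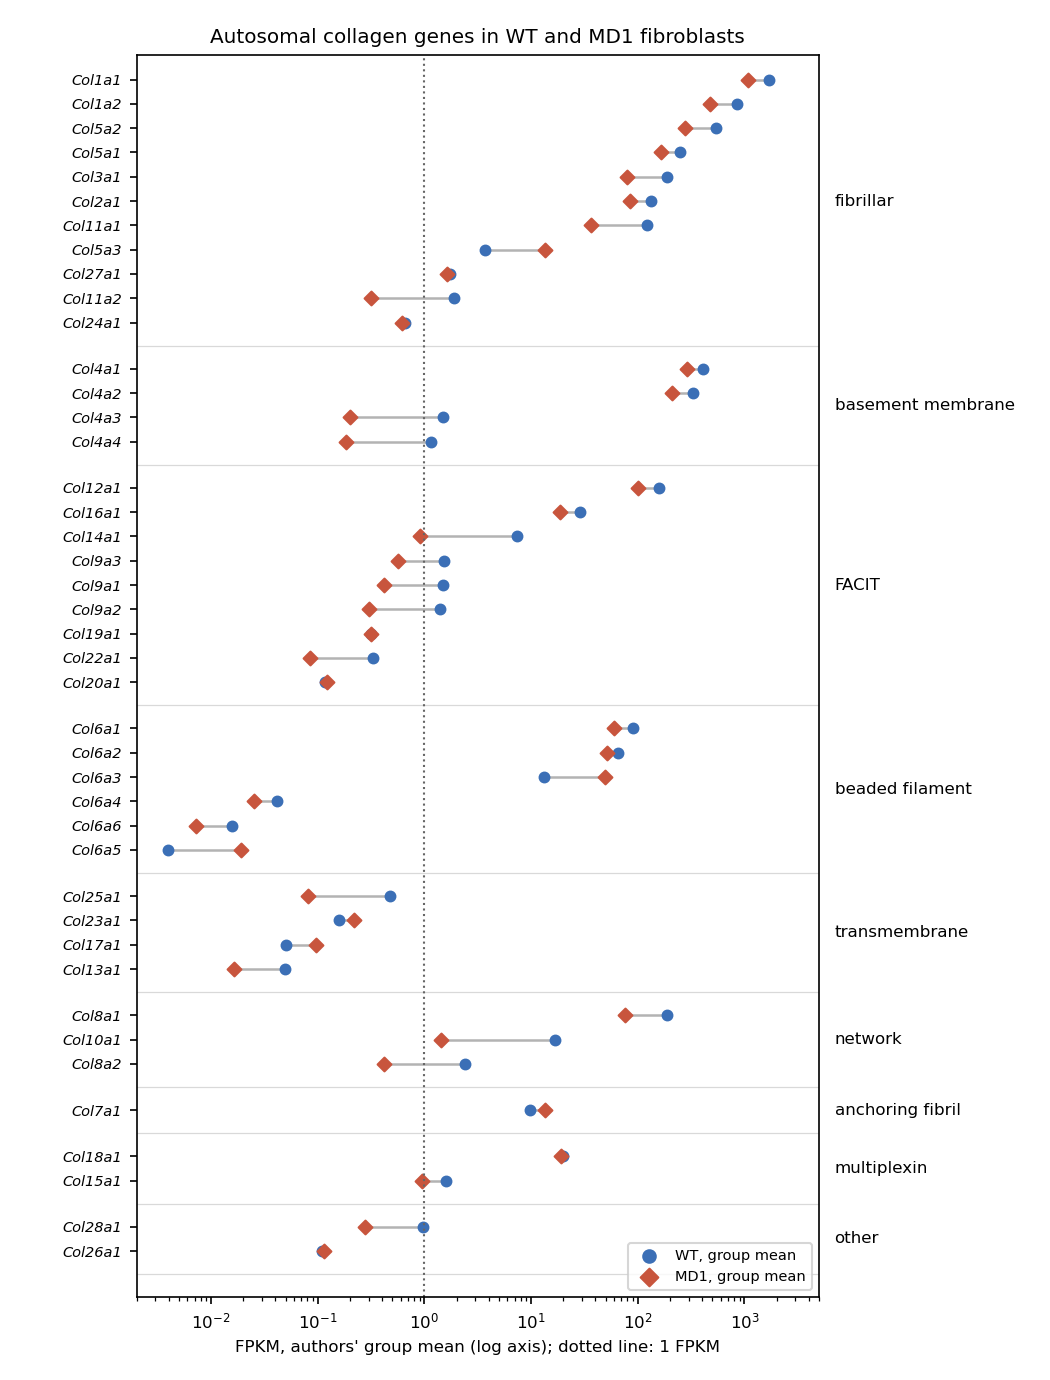
FPKM of the 42 autosomal collagen genes (horizontal log axis, the authors' group means, no error available) in WT (circles) and MD1 (diamonds), grouped by class. Diamonds lie left of circles for 33 genes, while Col5a3, Col6a3 and Col7a1 are the 3 genes at 1 FPKM or more with the diamond on the right.

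Type I collagen, the bulk of the fibrils of skin and bone, was the most abundant. Col1a1 (chromosome 11, 94797584 to 94813170, mm9) had 1688 FPKM in WT and 1081 in MD1, a log2 ratio of -0.64. Col1a2 (chromosome 6, 4455697 to 4491543) had 849 and 477 FPKM, a log2 ratio of -0.83. Both genes were lower by a like proportion, at 64.0% and 56.2% of WT, although they lie on different chromosomes. The type I molecule usually joins a pair of Col1a1 chains with a single Col1a2 chain, and the FPKM of Col1a1 over that of Col1a2 was 1.99 in WT and 2.26 in MD1.

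Type III, which accompanies type I in elastic tissues, was lower still. Col3a1 (chromosome 1, 45368383 to 45406551) had 188.9 FPKM in WT and 78.7 in MD1, or 41.6% of WT, with a log2 ratio of -1.25. Col1a1 exceeded Col3a1 by 8.94-fold in WT and by 13.7-fold in MD1.

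Type V collagen sits in the core of type I fibrils and helps to set their diameter, and its chains did not share a direction. Col5a1 (chromosome 2, 27741945 to 27895030) had 249.6 and 164.7 FPKM, and Col5a2 (chromosome 1, 45431176 to 45560127) had 544 and 279. Col5a3 (chromosome 9, 20574494 to 20619478), the minor chain, was higher in MD1, with 3.66 FPKM in WT against 13.52 in MD1. The log2 ratios were -0.60, -0.96 and 1.64 in that order. Col5a3 was the only fibrillar gene with a ratio above 0, and even in MD1 its level stayed 12.2-fold under that of Col5a1, against 68.1-fold in WT.

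Types II and XI form the fibrils of cartilage, and type XI chains also occur in fibroblasts. Col2a1 (chromosome 15, 97806033 to 97835155) had 133.2 and 83.9 FPKM, a log2 ratio of -0.66. Col11a1 (chromosome 3, 113733458 to 113923244) had 122.7 and 36.6 FPKM, a log2 ratio of -1.72, the lowest of the fibrillar class. Col11a2 (chromosome 17, 34176382 to 34203187), much less abundant, had 1.88 and 0.317 FPKM and a log2 ratio of -1.13. Col2a1 and Col11a1 were thus at about the same level in WT, with a ratio of 1.09, and apart in MD1, with a ratio of 2.29. The remaining fibrillar genes, Col27a1 and Col24a1, were low and close to equal between groups, with 1.72 and 1.64 FPKM for Col27a1 and 0.665 and 0.612 for Col24a1; their log2 ratios of -0.040 and -0.047 turned above 0 with quantile normalization. Over the 10 fibrillar genes at 1 FPKM or more, 9 were lower and the median log2 ratio was -0.75.

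The basement membrane genes came in pairs that share a promoter region, and the members of a pair had like values. Col4a1 (chromosome 8, 11198423 to 11312826) had 410.3 and 287.0 FPKM, and Col4a2 (11312829 to 11449287), which starts 2 bases away on the opposite strand, had 332.3 and 209.2. Their log2 ratios were -0.51 and -0.66. Col4a3 (chromosome 1, 82583496 to 82718634) and Col4a4 (82447298 to 82583424), with 71 bases between them, encode chains of kidney and lung basement membranes and were low. Col4a3 had 1.504 FPKM in WT and 0.199 in MD1, and Col4a4 had 1.15 and 0.183. In MD1 these were 13.2% and 15.9% of WT, far under the 69.9% and 63.0% of Col4a1 and Col4a2, but at levels where FPKM is imprecise.

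Type IV chains are also encoded on the X chromosome by Col4a5 and Col4a6, which the rule left out and for which reads per library exist. Col4a5 had 8120 and 10248 allele-specific reads per 1000000 X-linked allele-specific reads in the WT libraries and 3752 and 3373 in the MD1 libraries. Both MD1 libraries lay below both WT libraries, and the paternal JF1 allele gave 0.0827% ± 0.0111 of reads in WT and 1.09% ± 0.479 in MD1 (SD, n = 2). Col4a6 had 612 and 2635 reads per 1000000 in WT and 319 and 332 in MD1, so its WT libraries differed from each other more than WT replicate 1 did from MD1. Its group means, 4.26 and 1.03 FPKM, do not show this.

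Among all 331 X-linked genes with a mean of 100 reads or more, libraries of the same group differed by a median of 0.29 in WT and 0.32 in MD1 on the log2 scale of reads per 1000000 plus 1. A difference of 2-fold or more between the libraries of a group occurred for 8.76% of these genes in WT and 6.04% in MD1. These values are single libraries of allele-specific reads and not means of FPKM, so they cannot be set against the collagen ratios directly. They do show that a 2-fold difference can occur between libraries of 1 genotype.

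Among the FACIT collagens, Col12a1 and Col14a1 encode related fibril-surface proteins of tendon and skin. Col12a1 (chromosome 9, 79446794 to 79566529) had 159.1 and 101.0 FPKM, a log2 ratio of -0.65. Col14a1 (chromosome 15, 55139305 to 55352358) had 7.40 and 0.913 FPKM, or 12.3% of WT, with a log2 ratio of -2.13. Col16a1 (chromosome 4, 129725084 to 129776521) had 28.7 and 18.9 FPKM, a log2 ratio of -0.58.

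The 3 chains of type IX, which coats cartilage fibrils, were low and lower in MD1. Col9a1 had 1.49 and 0.416 FPKM, Col9a2 1.41 and 0.305, and Col9a3 1.54 and 0.565, which is 27.9%, 21.7% and 36.7% of WT. The 3 genes are on chromosomes 1, 4 and 2, and in WT the level of Col9a1 was 1.06 times that of Col9a2 and 0.968 times that of Col9a3. Col19a1, the neighbour of Col9a1 with 4944 bases between them, had 0.315 and 0.318 FPKM. Col22a1 had 0.332 and 0.0853, and Col20a1 had 0.117 and 0.123. The median log2 ratio of the 4 FACIT genes at 1 FPKM or more was -0.67, and of these Col14a1 and Col9a3 passed that minimum only through WT.

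Type VI collagen also differed between chains. Its main form joins the products of Col6a1, Col6a2 and Col6a3. Col6a1 (chromosome 10, 76171537 to 76188789) had 89.4 and 60.3 FPKM, and Col6a2 (76058501 to 76086149) had 65.8 and 52.0. Col6a3 (chromosome 1, 92663435 to 92740548) had 13.2 FPKM in WT and 49.0 in MD1, or 3.71-fold more, with a log2 ratio of 1.81 against -0.56 and -0.33 for its partners. In WT, Col6a1 exceeded Col6a3 by 6.76-fold and Col6a2 exceeded it by 4.98-fold. In MD1 the 3 chains were at nearly equal levels, with ratios of 1.23 and 1.06. The alternative type VI chains were close to the floor of the data, with 0.0417 and 0.0254 FPKM for Col6a4, 0.00395 and 0.0190 for Col6a5, and 0.0157 and 0.00722 for Col6a6.

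**Figure D3:**
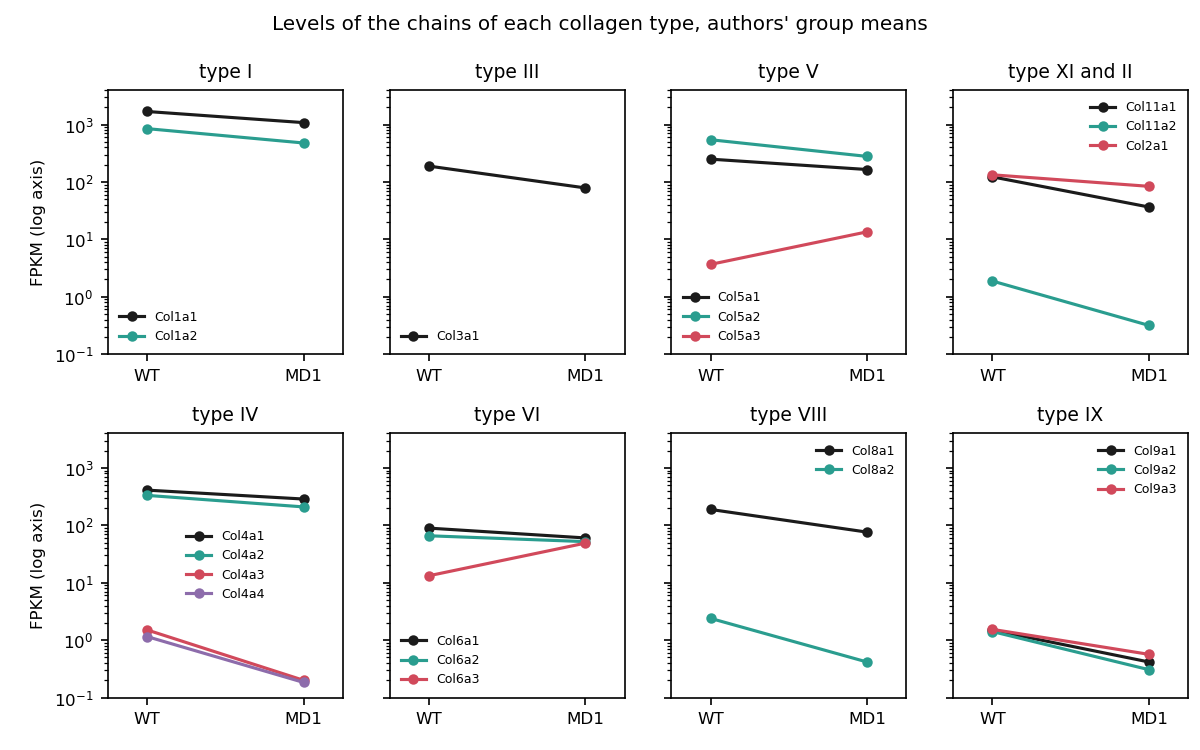
FPKM (vertical log axis, the authors' group means, no error available) of the chains of 8 panels of collagen types in WT and MD1; each line is a gene. Lines for Col5a3 and Col6a3 climb from 3.66 to 13.52 and from 13.2 to 49.0 FPKM while those of the other chains of types V and VI descend, and the lines of type IX run together.

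The network collagens were lower throughout. Col8a1 (chromosome 16, 57624369 to 57754850), found in vessel walls and beneath endothelia, had 188.9 and 76.1 FPKM, a log2 ratio of -1.30. Col8a2 (chromosome 4, 125964038 to 125991574), its partner chain, had 2.39 and 0.415 FPKM, a log2 ratio of -1.26. Col10a1 (chromosome 10, 34109787 to 34116891), the collagen of hypertrophic cartilage, had 16.6 FPKM in WT and 1.43 in MD1. At 8.62% of WT, with a log2 ratio of -2.86, it was the lowest of all 42 members. All 3 network genes were at least 2-fold lower.

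The promoter sequences of the member with the lowest ratio, Col10a1, and of the 2 with the highest, Col6a3 and Col5a3, are shown as the 250 bases before the RefSeq start (GRCm38.p6), with capitals for matches on either strand to the CCAAT box (searched as CCAAT), the GC box (searched as GGGCGG) and the TATA box (searched as TATAAA).
Col10a1 (chr10:34389731-34389980, plus strand): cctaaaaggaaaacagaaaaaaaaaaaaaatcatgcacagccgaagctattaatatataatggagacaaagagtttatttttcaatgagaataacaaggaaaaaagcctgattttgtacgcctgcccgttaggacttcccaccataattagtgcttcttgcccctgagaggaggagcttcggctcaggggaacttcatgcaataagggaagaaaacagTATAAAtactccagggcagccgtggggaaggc
Col6a3 (chr1:90843972-90844221, minus strand): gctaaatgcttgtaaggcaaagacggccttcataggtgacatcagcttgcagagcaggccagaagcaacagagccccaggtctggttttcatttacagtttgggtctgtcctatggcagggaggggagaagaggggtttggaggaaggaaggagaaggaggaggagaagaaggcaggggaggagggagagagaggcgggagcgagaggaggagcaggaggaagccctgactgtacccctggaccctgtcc
Col5a3 (chr9:20815068-20815317, minus strand): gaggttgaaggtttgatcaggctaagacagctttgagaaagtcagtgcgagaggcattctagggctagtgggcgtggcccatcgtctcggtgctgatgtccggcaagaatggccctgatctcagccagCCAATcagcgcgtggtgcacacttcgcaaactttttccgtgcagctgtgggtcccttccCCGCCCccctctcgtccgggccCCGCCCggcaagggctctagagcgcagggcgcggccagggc
The window of Col10a1 held a TATA box match and neither of the other motifs, that of Col6a3 held none of the 3, and that of Col5a3 held matches to the CCAAT and GC boxes and none to the TATA box. Over the 36 windows found for 33 members, the TATA box was matched in 13.9%, the CCAAT box in 33.3% and the GC box in 55.6%. Over all 32851 windows of this length the shares were 12.4%, 33.8% and 32.7%. A match describes these letters and does not show binding.

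The anchoring fibril gene was higher and both multiplexin genes were lower. Col7a1 (chromosome 9, 108855790 to 108886920), which forms the anchoring fibrils under epithelia, was higher in MD1, with 9.76 and 13.4 FPKM and a log2 ratio of 0.42. Col18a1, whose C-terminal fragment is endostatin, had 20.04 and 18.998 FPKM, a log2 ratio of -0.073. Col15a1, its relative, had 1.58 and 0.959 FPKM, or 60.7% of WT, a log2 ratio of -0.40. With a pseudocount of 0.1 that ratio was -0.67. All 4 transmembrane genes were under 1 FPKM in both groups, with 0.479 and 0.0804 for Col25a1, 0.158 and 0.218 for Col23a1, 0.0508 and 0.0970 for Col17a1, and 0.0492 and 0.0166 for Col13a1. Their class therefore gave no ratio. Of the remaining genes, Col28a1 had 0.967 and 0.275 FPKM and Col26a1 0.110 and 0.115.

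Most markers of cartilage and bone cells were lower in MD1, and so were the cartilage collagens Col2a1, Col9a1, Col9a2, Col9a3, Col10a1, Col11a1 and Col11a2. Col2a1, at 63.0% of WT, was at the median of the 10 members with a mean of 100 FPKM or more. The other cartilage collagens were at 8.62% to 36.7% of WT. Of 7 chondrocyte markers, 6 were lower and 1 higher, with a sum of 14.2 FPKM in WT and 10.2 in MD1. For this and the marker counts that follow, 52.5% of all genes above 0 in both groups were lower. The marker counts also include genes listed at 0 in MD1, which that share leaves out. At 1 FPKM or more, 4 of 5 chondrocyte markers and 2 of 3 osteoblast markers were lower, against 49.2% of all such genes. Acan, the proteoglycan of cartilage, had 1.61 and 0.962, Comp had 2.35 and 0.264, and Matn1, at 0.210 in WT, was at a listed 0 in MD1, while the regulator Sox9 was higher, at 4.41 and 7.10. Of 8 osteoblast markers 6 were lower and 2 higher, with sums of 26.9 and 10.3 FPKM. Ibsp had 14.7 and 0.0172, Alpl 2.84 and 0.453, and Bglap2, at 0.159 in WT, was at a listed 0 in MD1. The higher ones were the regulator Runx2, with 7.35 and 9.03 and thus most of the MD1 sum, and Phex, with 0.230 and 0.413. The part of these cells in the collagen values was not tested.

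Contractile cell markers were lower as well. All 6 smooth muscle markers were lower, with sums of 5779 and 3476 FPKM, or 60.1% of WT, and all 7 skeletal muscle markers were lower, with sums of 101.4 and 29.3. Of 4 tendon markers 3 were lower, with sums of 62.3 and 41.1 FPKM, mostly from Egr1 at 42.6 and 25.8. Scx had 9.81 and 5.60, Mkx 1.79 and 1.48, and Tnmd was about equal at 8.06 and 8.20. The part of these cell types in the collagen values was not tested either.

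Markers of fibroblasts were present in both groups and went in both directions. Of 10 such markers 3 were lower and 7 higher, where 49.2% of all genes at 1 FPKM or more were lower. Their sums were 3106 and 3156 FPKM, mostly from the filament gene Vim at 2790 and 2802. Pdgfrb, at 65.4 and 44.3, was at 67.7% of WT, while Pdgfra had 4.79 and 9.25, Fbln1 10.4 and 16.7 and Thy1 68.9 and 97.3. The mesenchymal regulator Prrx1 had 70.7 and 69.2 FPKM. Among the other cell types, endothelial markers summed to 7.80 and 4.93 FPKM (3 lower, 2 higher), with Emcn at 4.12 and 1.58 and Pecam1 at 0.0758 and 0.117. Epithelial markers summed to 21.1 and 25.1 (5 lower, 1 higher), with Krt18 at 17.1 and 22.1, Epcam at 0.182 and 0.172 and Krt5 listed at 0 in MD1. Blood and immune markers summed to 123.0 and 105.0 (5 lower, 1 higher), with Lyz2 at 99.4 and 86.8 and Ptprc at 0.470 and 0.352. Schwann and neural markers summed to 35.9 and 61.7 (2 lower, 3 higher), with Stmn2 at 9.62 and 24.8, Tubb3 at 16.4 and 31.6, Map2 at 6.44 and 2.05 and Sox10 at 1.65 and 1.37.

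Most genes for the enzymes that modify collagen chains were lower in MD1. Of 13 hydroxylase and glycosyltransferase genes at 1 FPKM or more, 12 were below 0, 2 of them by at least 2-fold, with a median log2 ratio of -0.31. For this and the following lists, 49.2% of all genes at that level were below 0, and 2.81% were at least 2-fold lower. The prolyl hydroxylase genes P4ha1 and P4ha3 had 87.4 and 52.1 and 29.7 and 14.1 FPKM, and their partner P4hb, which is also a protein disulfide isomerase, had 687.6 and 554. Plod2, the lysyl hydroxylase of telopeptides, had 101.9 and 57.3, while its relative Plod1 had 26.9 and 27.2. The prolyl 3-hydroxylase genes P3h1, P3h2 and P3h3 had ratios of -0.49, -1.07 and -0.70.

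Most chaperone and export genes were lower in MD1. Of 17 at 1 FPKM or more, 14 were below 0, against 49.2% of all such genes, with a median of -0.25. None was 2-fold apart, which is usual, since 2.81% of all such genes were at least 2-fold lower and 1.39% higher. Serpinh1, the collagen-specific chaperone HSP47, had 1052 and 831 FPKM. The collagen-binding matrix protein gene Sparc had 1590.3 and 956.8, a ratio of -0.73. Fkbp10, Fkbp14 and Fkbp7, which encode prolyl isomerases of the endoplasmic reticulum, had ratios of -0.44, -0.60 and -0.59. The coat protein gene Sec23a had -0.51, and the regulators of secretory genes Creb3l1 and Creb3l2 had 0.32 and -0.60.

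Genes for trimming and cross-linking differed by member. Of 6 propeptide removal genes at 1 FPKM or more, 3 were below 0 and 3 above, with a median of -0.0029. Bmp1, the C-propeptide protease, had 83.3 and 74.6 FPKM and its enhancer Pcolce 352.8 and 220.4, while the N-propeptide protease Adamts2 had 1.94 and 3.002. All 6 cross-linking genes were below 0, with a median of -0.47. Lox, the lysyl oxidase that links fibrils, had 723 and 691 FPKM, Loxl2 230.9 and 123.8, and Loxl4 42.4 and 16.8, with ratios of -0.067, -0.89 and -1.29.

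Receptors divided most widely. Of 8 collagen receptor genes at 1 FPKM or more, 7 were below 0, 3 of them by at least 2-fold, and 1 was at least 2-fold higher. The integrin genes Itga1 and Itga11 had 6.63 and 1.81 and 51.6 and 21.4 FPKM. Itga2, whose product also binds collagen, had 0.993 FPKM in WT and 7.03 in MD1, a log2 ratio of 2.01, and passed the minimum only through MD1. Itgb1, the common partner of these integrins, had 959.8 and 785 FPKM. Mrc2, an endocytic collagen receptor, had a ratio of -1.05 and the collagen-activated kinase Ddr2 one of -0.54.

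Regulators of collagen transcription were divided. Of 30 genes at 1 FPKM or more, 19 were above 0 and 11 below. That is 36.7% below 0, against 49.2% of all genes at that level. Their median was 0.11, against 0.0058, and 2 were at least 2-fold lower and 0 higher. The growth factor genes Tgfb2 and Tgfb3 were at least 2-fold lower, with 30.4 and 12.9 and 149.6 and 72.9 FPKM, while Tgfb1 had 24.97 and 28.3. The TGF-beta target Ctgf had 851 and 1192 FPKM. Cebpd and Tgfbr3 had ratios of 0.99 and 0.79, and the tendon regulator Scx had -0.71. Over all 80 genes of these 6 lists at 1 FPKM or more, 8 were at least 2-fold lower and 1 at least 2-fold higher. Below 0 were 53 of the 80, and the median was -0.15. Over all genes at that level the values were 2.81%, 1.39%, 49.2% and 0.0058. Sox9, Scx, Mkx, Runx2, Sp7 and Twist1 are in the regulator list and in a marker list.

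**Figure D4:**
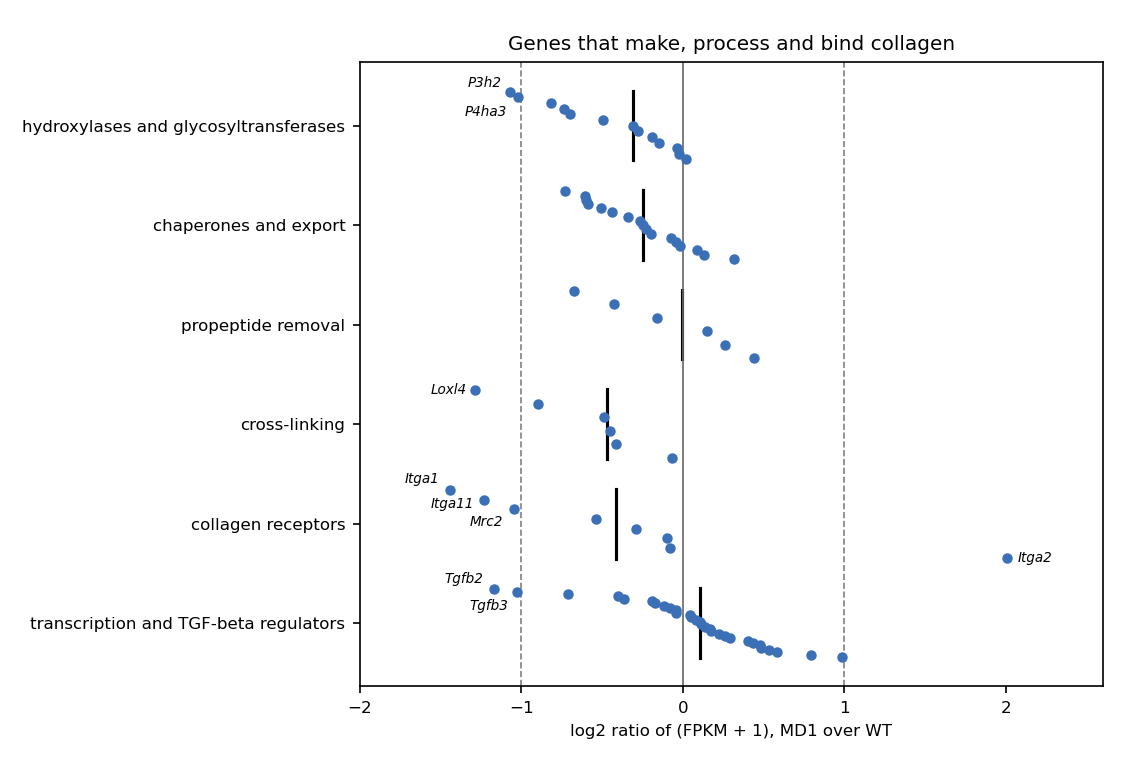
Log2 ratio of (FPKM + 1), MD1 over WT (horizontal axis), of genes at 1 FPKM or more in 6 lists of the collagen pathway; each point is a gene, black bars are medians and dashed lines mark 2-fold. Medians lie at -0.31, -0.25, -0.0029, -0.47, -0.41 and 0.11 from top to bottom, and Itga2 at 2.01 is the only gene right of the upper dashed line.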

How the data were processed

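RNA of 4 fibroblast cultures, 2 WT and 2 MD1, was sequenced after a stranded mRNA preparation, per the labels' protocols. For all genes the authors deposited FPKM, averaged by them to 1 value for each group. Allele-specific read counts per library, and the JF1 fraction of these reads, were deposited by the authors for X-linked genes only; the counts totalled 521768 to 806626 per library. Cufflinks 2.2.1, Cuffdiff and the build mm9 are named, without their roles, in the submitters' processing notes; which aligner and annotation were used is not given in the sources used here. Counts limit the precision of the X-linked values, and the depth behind FPKM is unknown. Whether the replicates are cultures of separate fetuses is not in the labels.

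Gene starts were counted from 0 in the table and are printed 1-based in mm9. With the start moved up by 1, 9510 spans equalled the RefSeq length, against 620 as given, among 21376 genes matched by symbol. Groups were taken from the sample titles. Ratios used a pseudocount of 1 and a minimum mean FPKM of 1 with values above 0 in both groups (Python 3.11.15, pandas 2.3.3). The counting of ratios was tested on simulated data. Lists are described by counts and medians, with no test, since there is 1 value per group. Glycine runs came from the longest complete coding sequence of each gene in GENCODE M21, in place of the planned protein sequences, which were not used here. The 42 members and the lists (6 pathway, 10 marker) were chosen with earlier results of these data known. Members at 1 FPKM or more, and those under it above 0.3 FPKM, were to be named; those lower still were named after their values were seen. Of each pathway list up to 8 genes with the highest absolute ratio could be named, plus Serpinh1, Lox, Bmp1, P4ha1 and P4hb; Plod1 and Tgfb1, and the markers other than those at or near 0, were named after their values were seen. The alternatives were another pseudocount, filter, scaling and fold. A planned marker gene was left out of its list and is not reported here.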

Additional observations from a re-analysis of the deposited data

How the results depend on the processing

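The median log2 ratio of the collagens stayed below 0 under each setting tried. With a pseudocount of 0.1 it was -0.67 (FACIT -0.98, beaded filament -0.34), and 2 pathway genes were at least 2-fold higher, beside 2.27% of all genes. Keeping genes at a mean FPKM of 5 or more, it was -0.64 (FACIT -0.61), with 4 collagens at least 2-fold lower and 2 higher among 19, and 6 pathway genes lower and 0 higher, beside 2.25% and 1.11% of all genes; fewer genes enter. With no filter it was -0.57 over 42 genes (fibrillar -0.66, basement membrane -0.76, FACIT -0.65, beaded filament -0.017). Quantile normalization gave -0.61 (fibrillar -0.71, basement membrane -0.50, FACIT -0.64, beaded filament -0.34) and turned the propeptide removal median to 0.0056; the cause was not tested. Setting the autosomal median to 0 gave -0.68 for FACIT. At a fold of 1.5, 15 collagens were lower and 2 higher, and 18 pathway genes were lower and 3 higher, beside 7.65% and 6.05% of all genes. Of the 42 members, 40 kept their sign under all these settings except the change of fold, which moves no ratio; the others were Col24a1 and Col27a1. No paired analysis was possible because autosomal values are group means, and leaving out a library was not possible for the same reason.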

Other observations

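Several collagen genes lie side by side in the genome. Neighbours had like ratios in the pairs where both genes had a mean of 1 FPKM or more. Col3a1 and Col5a2, which face each other on chromosome 1 with 24624 bases between them, had log2 ratios of -1.25 and -0.96. Col6a2 and Col6a1, 85387 bases apart on chromosome 10, had -0.33 and -0.56. Col9a1 and Col19a1, 4944 bases apart and both with a mean under 1 FPKM, differed, with -0.81 and 0.0033. Col19a1 had 0.318 FPKM in MD1, where the scale allows little change. Col6a3, the partner of Col6a1 and Col6a2 in the protein, lies on another chromosome. These are values of single group means, and no test of position was made.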
